A study of Bos taurus with 4 samples.

Results

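The genes described here are the antioxidant enzymes of the bovine embryo together with NFE2L2, which encodes the transcription factor NRF2, and KEAP1, its inhibitor. They were chosen as 37 gene symbols of the platform annotation, and each had at least 1 probe among the 43794 probes of the array. These 37 genes carried 66 probes, of which 55 were bright enough to be tested. A tested probe was available for 35 genes, and the brightest of each gene is set here among 11973 genes tested in the same way. NQO1, a quinone reductase, and GSTA1, a glutathione transferase, were too dim to be tested.

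The comparison addresses whether embryos differ in their transcripts with the age of the sire near puberty. Blastocysts of Bos taurus were produced in vitro from slaughterhouse oocytes with semen of bulls at 16 months or at 12 months of age. Each of 4 two-colour arrays carried RNA of both ages, the 16-month RNA in Cy3 on arrays 1 and 2 and in Cy5 on arrays 3 and 4. The 4 bulls were each collected at both ages, but which bull an array stands for and how many embryos went into each RNA are not given in the sources read. The embryos of both ages shared oocyte source, culture, linear amplification of the RNA and chemical labelling of the amplified RNA. The labels call the arrays biological replicates without naming separate fertilisations, so the p-values measure the spread between these 4 arrays.

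As background, cells of the early embryo make superoxide and hydrogen peroxide in their mitochondria and meet more oxygen in culture than in the oviduct. Superoxide dismutases turn superoxide into peroxide, which catalase, glutathione peroxidases and peroxiredoxins remove. The thioredoxin and glutathione systems return the peroxiredoxins and glutathione peroxidases to their reduced state with electrons from NADPH. KEAP1 marks NRF2 for destruction in unstressed cells, and oxidants or electrophiles release NRF2 to switch on genes such as those for glutathione synthesis, haem oxygenase, quinone reductase and sulfiredoxin.

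Values are given as log2 ratios of 12 over 16 months, so a negative ratio means that the transcript was higher in embryos of the 16-month semen. Levels are normalised log2 intensities, and the level of a probe is never set against that of another, apart from the brightness used to choose a gene's probe. The mean ± SD of a ratio is over 4 arrays (n = 4). A ratio given without an array is a fitted ratio, with age and dye fitted again on the remaining arrays. In such a fit the array left alone in its dye orientation counts as much as the other pair together. The fitted ratio is therefore not the plain mean of the remaining arrays. A probe counted as above background when its signal exceeded the negative controls of its own array and colour, and 31 of the 35 tested genes did so in all 8 channel signals.

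No antioxidant or NRF2 gene passed the test between the ages. In limma, 0 of the 35 genes reached an adjusted p under 0.05, as did 0% of the 30986 probes tested, and their adjusted p ran from 0.969 to 0.999. Of the 35 genes, 22 had a mean ratio below 0 and were higher in 16-month RNA, and 13 had a mean ratio above 0 and were lower there. Their median ratio was -0.048, against 0.0013 for all 11973 genes, which were split into 5939 below 0 and 6034 above 0. All 35 ratios lay within 1.5-fold in either direction, as did those of 11945 of the 11973 genes.

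At an unadjusted p under 0.05 in limma stood 2 genes that were higher in 16-month RNA, GLRX and MT1E, which is 5.71% of 35 against 2.04% of all genes tested. In the other direction stood 0 of 35, against 2.25% of all genes tested. The count over both directions changed with the array left out, and the matching share of all genes in those fits is not given here. A ratio below 0 on every array was found for GLRX, MT1E, PRDX5 and PRDX6, or 11.4% of 35, where 5.54% of all genes had one. A ratio above 0 on every array was found for PRDX4, or 2.86% of 35, where the share of all genes was 4.65%. These counts are small, and the genes were chosen with earlier results of these data known. In whole embryos a lower signal can come from fewer cells of a type or from less RNA per cell, which cannot be told apart here.

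**Figure D1:**
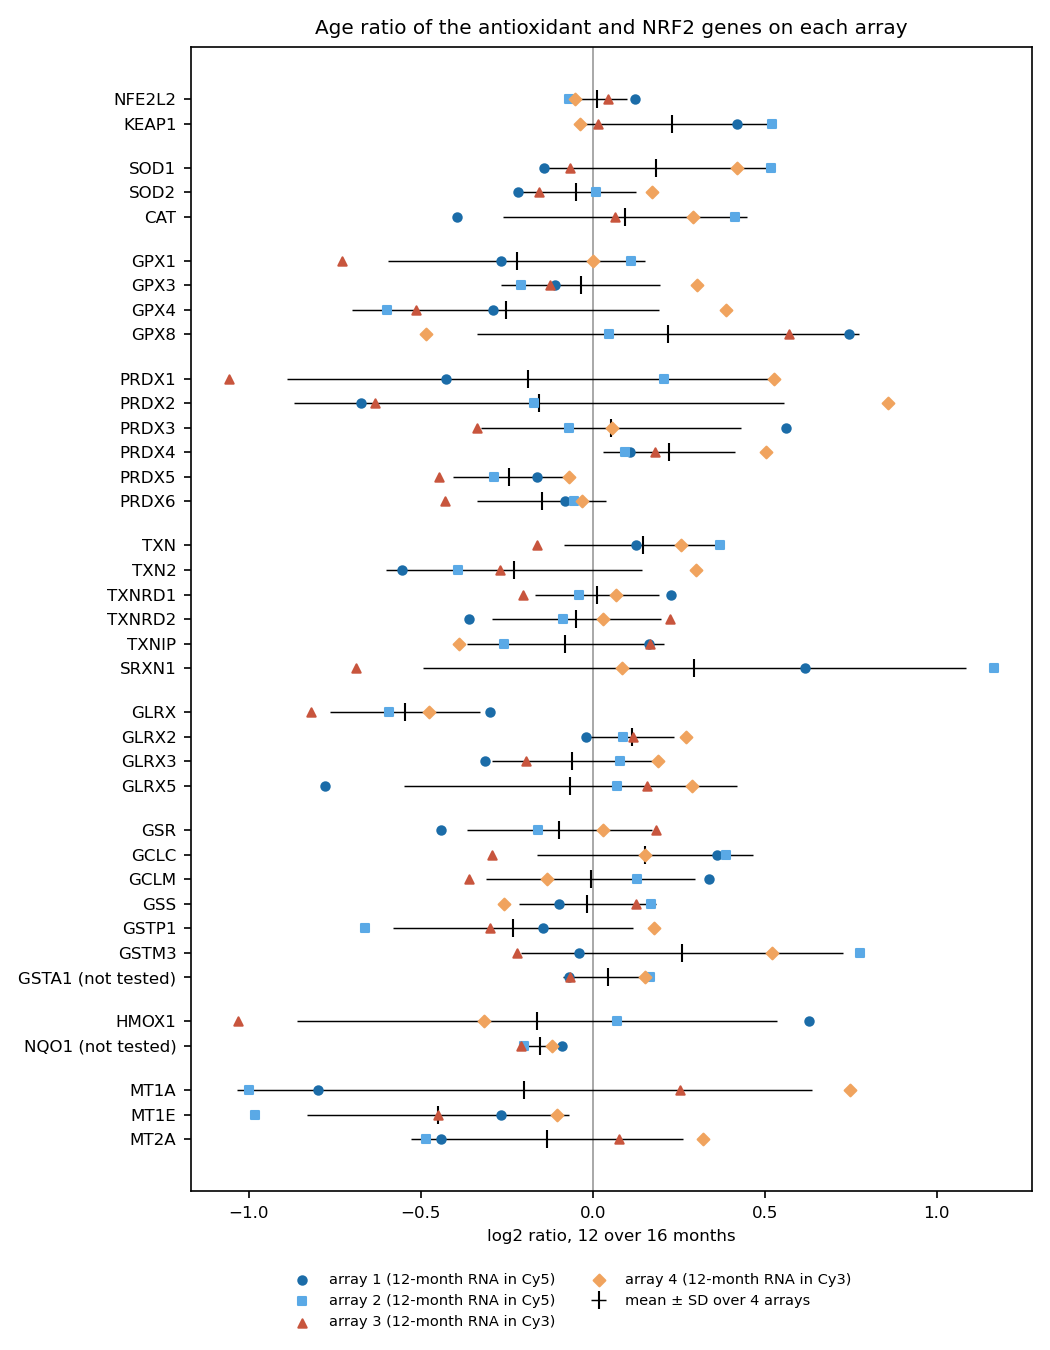
Log2 ratio of 12 over 16 months (horizontal axis) of each of the 37 genes, grouped by role from control genes at the top to metallothioneins at the bottom. Each of the 4 symbols is an array, and the black mark and bar are the mean and SD over 4 arrays. GLRX lies left of 0 on all 4 arrays, between -0.82 and -0.30, while most other genes have arrays on both sides of 0.

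NFE2L2 and KEAP1 control the pathway. The NFE2L2 level was 10.50, 11.07, 11.20 and 11.23 in 16-month RNA on arrays 1 to 4, against 10.62, 10.996, 11.25 and 11.17 in 12-month RNA. The levels of the ages overlapped almost fully, and array 1 was lowest in both. The ratio was 0.011 ± 0.089, the smallest SD over arrays of the 35 genes, and its 95% confidence interval of -0.26 to 0.28 leaves room for differences of up to about that size (adjusted p = 0.996 in limma). Its sign was not stable. The fitted ratio was -0.036 without array 1, 0.059 without array 2, -0.013 without array 3 and 0.036 without array 4.

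The KEAP1 level was 9.73, 10.03, 9.22 and 10.43 in 16-month RNA, against 10.15, 10.56, 9.24 and 10.40 in 12-month RNA. The ages overlapped, and array 3 was lowest in both. The array ratios were 0.42, 0.52, 0.016 and -0.036, so the mean of 0.23 ± 0.28 came from arrays 1 and 2, on which the 12-month RNA was in Cy5 (adjusted p = 0.969 in limma, 95% interval -0.032 to 0.49). The fitted dye coefficient of KEAP1, its log2 ratio of Cy5 over Cy3 apart from age, was 0.24, slightly larger than the age ratio.

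Superoxide and peroxide are first handled by SOD1, the cytosolic superoxide dismutase, SOD2, its mitochondrial counterpart, and CAT, catalase. SOD1 had ratios of -0.14, 0.52, -0.067 and 0.42 on arrays 1 to 4 and a mean of 0.18 ± 0.33, and its further probe had a mean of 0.097 ± 0.19. CAT followed the same order of arrays, at -0.39, 0.41, 0.065 and 0.29, with a mean of 0.094 ± 0.36. SOD2 stood at -0.048 ± 0.17. For these genes, array 1 pointed toward 16 months and arrays 2 and 4 toward 12 months, and their adjusted p in limma was between 0.969 and 0.985.

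Glutathione peroxidases reduce peroxides with glutathione. GPX4, which reduces lipid peroxides in membranes, had levels of 13.28, 13.56, 13.47 and 13.18 in 16-month RNA and of 12.99, 12.96, 12.96 and 13.57 in 12-month RNA. On arrays 1 to 3 the 16-month level was higher, and on array 4 it was lower, so that the ages overlapped. The ratios were -0.29, -0.60, -0.51 and 0.39, with a mean of -0.25 ± 0.45 (adjusted p = 0.969 in limma). The fitted ratio was -0.028 without array 3 and -0.48 without array 4.

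GPX1, the abundant cytosolic enzyme, had ratios of -0.27, 0.11, -0.73 and 0.0011 and a mean of -0.22 ± 0.37. GPX8, an enzyme of the endoplasmic reticulum, had a mean of 0.22 ± 0.56, with arrays between -0.48 and 0.75. The fitted GPX8 ratio was 0.045 without array 1, -0.044 without array 3 and 0.48 without array 4. Its further probe was above 0 on all 4 arrays at a mean of 0.17 ± 0.18, which also missed the threshold (adjusted p = 0.969 in limma). GPX3, the secreted plasma enzyme, was above background on 2 arrays in 16-month RNA and on 2 in 12-month RNA, and stood at -0.035 ± 0.23.

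Peroxiredoxins are thiol peroxidases, and 4 of the 6 were higher in 16-month RNA on average. PRDX5, found in mitochondria, peroxisomes and cytosol, had levels of 11.46, 11.48, 11.07 and 11.37 in 16-month RNA, against 11.30, 11.19, 10.62 and 11.30 in 12-month RNA. The 16-month level was the higher of the pair on every array, although the ages overlapped because array 3 was low in both. The ratio was -0.24 ± 0.16 (95% interval -0.52 to 0.039, adjusted p = 0.969 in limma), and it was -0.15 without array 3 and -0.13 with mean pixel brightness in place of the median. A further, dimmer PRDX5 probe had ratios of -0.34, 0.25, -0.060 and 0.40 and a mean of 0.064 ± 0.33.

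PRDX6, a peroxiredoxin with a single active cysteine that also acts on phospholipids, had levels of 14.58, 14.59, 14.75 and 14.59 in 16-month RNA, against 14.50, 14.53, 14.32 and 14.56 in 12-month RNA. It was the 1 gene of 35 whose 4 levels in 16-month RNA all lay above its 4 levels in 12-month RNA, a pattern shown by 0.535% of all genes tested. The reverse pattern was found for 0 of 35 and for 0.393% of all genes. The gap was narrow, and the ratios of -0.081, -0.054, -0.43 and -0.031 show that array 3 carried most of the mean of -0.15 ± 0.19 (adjusted p = 0.969 in limma). Without array 3 the fitted ratio was -0.049, and without array 4 it was -0.25. With mean pixel brightness it was -0.049. The other 4 PRDX6 probes, all tested, had means of 0.0019, -0.12, -0.028 and -0.14, each with arrays on both sides of 0.

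PRDX4, the peroxiredoxin of the endoplasmic reticulum, had levels of 11.92, 12.98, 12.97 and 12.76 in 16-month RNA, against 12.03, 13.07, 13.15 and 13.27 in 12-month RNA. The 16-month level was the lower of the pair on every array, and the ages overlapped because array 1 was low in both. The ratios were 0.11, 0.093, 0.18 and 0.50, and the mean was 0.22 ± 0.19 (95% interval -0.052 to 0.50, adjusted p = 0.969 in limma). Without array 4 the fitted ratio was 0.14.

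The cytosolic peroxiredoxins PRDX1 and PRDX2 varied most within the family. PRDX1 had ratios of -0.43, 0.21, -1.06 and 0.53 and a mean of -0.19 ± 0.70. PRDX2 had ratios of -0.67, -0.17, -0.63 and 0.86, a mean of -0.15 ± 0.71 and a further probe at -0.040 ± 0.45. Both were lower in 12-month RNA on array 3 and higher on array 4, arrays of the same dye orientation. Their fitted ratios, which are not plain means, were 0.21 and 0.22 without array 3, and -0.58 and -0.53 without array 4. PRDX3, the mitochondrial peroxiredoxin, stood at 0.053 ± 0.38.

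**Figure D2:**
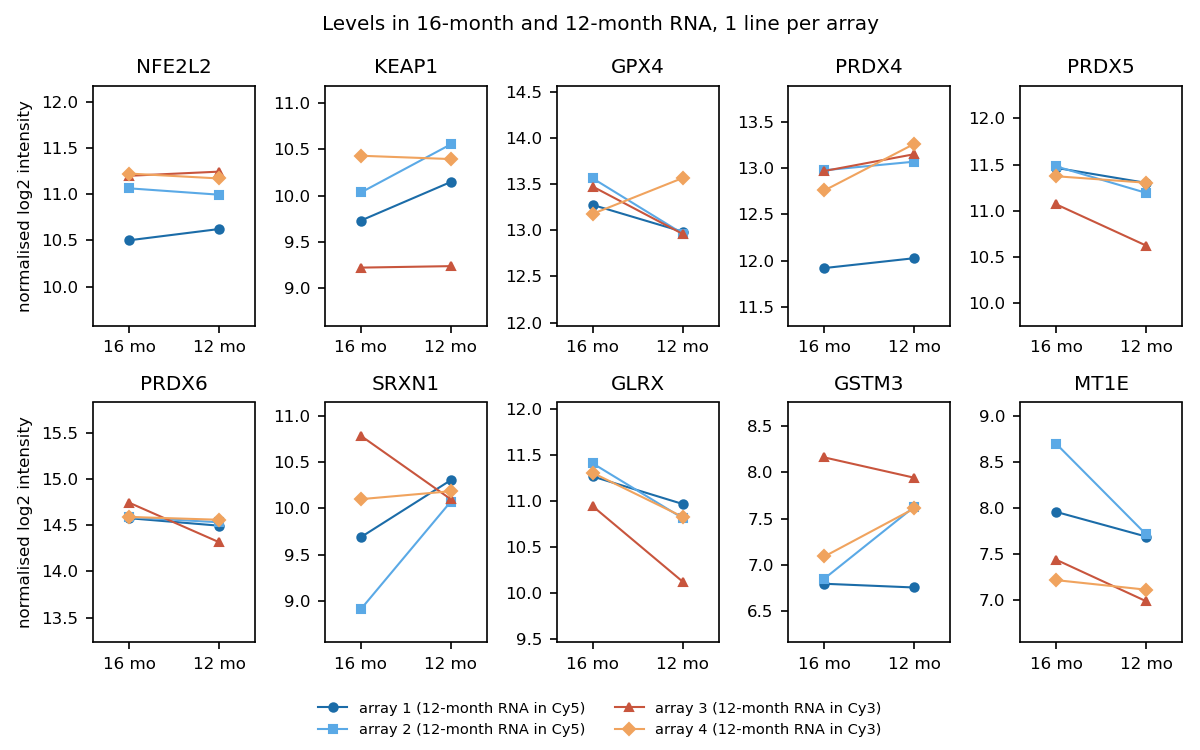
Normalised log2 intensity (vertical axis, each panel spanning the same number of log2 units) in 16-month RNA (left) and 12-month RNA (right) of 10 genes: NFE2L2, KEAP1 and the genes with 1 direction on all arrays, an unadjusted p under 0.05 or a mean ratio of at least 0.25 in size. Each line is 1 of the 4 arrays. The GLRX lines all run lower on the 12-month side, the PRDX4 lines all run higher there, and the SRXN1 lines cross.

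Thioredoxins pass electrons from NADPH to peroxiredoxins and other proteins, through thioredoxin reductases. The cytosolic TXN had a mean ratio of 0.15 ± 0.23, with arrays at 0.13, 0.37, -0.16 and 0.26. TXN2, the mitochondrial thioredoxin, had a mean of -0.23 ± 0.37, with arrays at -0.55, -0.39, -0.27 and 0.30. It was the gene with the most probes, and all 6 had a mean below 0, from -0.23 to -0.088. One of them lay below 0 on all 4 arrays, at -0.14 ± 0.17, and its adjusted p in limma was 0.969. On arrays 1 and 2 all 6 probes were below 0, while on array 4 the brightest stood at 0.30. The dye coefficients of the 6 probes were also all below 0, from -0.25 to -0.071. That of the brightest was -0.24, slightly larger in size than its age ratio.

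The reductases TXNRD1, cytosolic, and TXNRD2, mitochondrial, stood at 0.013 ± 0.18 and -0.048 ± 0.25. A further TXNRD2 probe was above 0 on all arrays, at 0.17 ± 0.20, so the TXNRD2 probes pointed apart. TXNIP, which binds and inhibits thioredoxin, stood at -0.079 ± 0.29 with a further tested probe at -0.087 ± 0.26.

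SRXN1, sulfiredoxin, repairs over-oxidised peroxiredoxins and is an NRF2 target in mouse and human cells. Its level was 9.69, 8.91, 10.79 and 10.10 in 16-month RNA, against 10.31, 10.08, 10.10 and 10.19 in 12-month RNA. The 12-month levels were close to each other and the 16-month levels spread around them, lowest on array 2 and highest on array 3. The ratios were 0.62, 1.17, -0.69 and 0.086, with a mean of 0.30 ± 0.79 (95% interval -0.065 to 0.66, adjusted p = 0.969 in limma). The dye coefficient was 0.60, larger than the age ratio. The fitted ratio was 0.10 without array 4, 0.16 without array 2 and 0.49 without array 3. A further probe stood at 0.072 ± 0.33.

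Glutaredoxins use glutathione to undo disulfides between proteins and glutathione. GLRX, the cytosolic glutaredoxin, gave the largest mean ratio in size of the 35 genes over the 4 arrays. MT1E was larger with mean pixel brightness (-0.35) and without array 1 (-0.63, against -0.62 for GLRX), and SRXN1 without array 3 (0.49, against -0.46). Its level was 11.27, 11.41, 10.94 and 11.31 in 16-month RNA, against 10.97, 10.82, 10.13 and 10.83 in 12-month RNA. The 16-month level was the higher of the pair on every array, and the ages overlapped by 1 pair of values, the 16-month level of array 3 lying just under the 12-month level of array 1.

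The GLRX ratios were -0.30, -0.59, -0.82 and -0.48, and the mean of -0.55 ± 0.22 corresponds to a level 1.46-fold higher in 16-month RNA (95% interval -0.83 to -0.26). The dye coefficient was 0.10, smaller than the age ratio. The unadjusted p was 0.0019 and the adjusted p 0.969 in limma. Without array 4 the fitted ratio was -0.63 and the adjusted p 0.0355 in limma. That fit had 1 lone array in 1 dye orientation, and 383 probes passed in it. Without array 1, 2 or 3 the adjusted p was between 0.320 and 1, and under the other settings between 0.821 and 1. With the mean in place of the median pixel brightness the ratio was -0.28.

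GLRX had a single probe under its own symbol. A pair of further probes carries the symbol GLRXL, a synonym of GLRX in RefSeq (ARS-UCD2.0). Both were brighter than the GLRX probe, at mean log2 intensities of 15.33 and 12.02 against 10.96. They do not represent GLRX here because genes were taken by platform symbol. The brighter had ratios of -0.43, 0.35, -0.84 and -0.76 and a mean of -0.42 ± 0.54 (unadjusted p = 0.0188, adjusted p = 0.969 in limma). Its dye coefficient was 0.38, close to the age ratio in size. The dimmer had ratios of -0.22, 0.046, -0.48 and -0.054 and a mean of -0.18 ± 0.23. Both were higher in 16-month RNA on arrays 1, 3 and 4 and lower on array 2.

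The other glutaredoxins were closer to 0. GLRX2, a mitochondrial form, stood at 0.11 ± 0.12. GLRX3, which carries iron-sulfur clusters in the cytosol, stood at -0.059 ± 0.23 with a further tested probe at -0.11 ± 0.33. GLRX5, which serves iron-sulfur cluster assembly in mitochondria, stood at -0.065 ± 0.48, with array 1 at -0.78 and the others between 0.072 and 0.29.

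Glutathione is made by GCLC and GCLM, the catalytic and the modifier subunit of the rate-limiting ligase, and by GSS, its synthetase. GCLC had ratios of 0.36, 0.39, -0.29 and 0.15 and a mean of 0.15 ± 0.31. GCLC cleared the negative controls on 4 arrays at 16 months and on 3 at 12 months. GCLM had ratios of 0.34, 0.13, -0.36 and -0.13 and a mean of -0.0063 ± 0.30. Both subunits were higher in 12-month RNA on arrays 1 and 2 and lower on array 3, and their dye coefficients were 0.22 and 0.24. GSS stood at -0.015 ± 0.20. GSR, which regenerates glutathione with NADPH, stood at -0.097 ± 0.27.

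Glutathione transferases join glutathione to electrophiles. GSTM3, a mu-class transferase, had levels of 6.79, 6.85, 8.16 and 7.09 in 16-month RNA, against 6.75, 7.63, 7.94 and 7.61 in 12-month RNA. It cleared the negative controls on 2 arrays at 16 months and on 3 at 12 months, and the ages overlapped. The ratios were -0.040, 0.78, -0.22 and 0.52, with a mean of 0.26 ± 0.47 (adjusted p = 0.969 in limma). The fitted ratio was 0.46 without array 1, 0.055 without array 2, 0.44 without array 3 and 0.074 without array 4. GSTP1, the pi-class transferase, stood at -0.23 ± 0.35, but its further probes stood at 0.10 ± 0.24 and -0.037 ± 0.24. GSTA1, an alpha-class transferase, was above background on 2 arrays in 16-month RNA and on 1 in 12-month RNA.

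HMOX1, haem oxygenase, and NQO1, quinone reductase, are classic NRF2 targets in mouse and human cells. HMOX1 had levels of 8.15, 8.48, 7.61 and 8.17 in 16-month RNA, against 8.78, 8.55, 6.58 and 7.85 in 12-month RNA. The low 12-month value of array 3 stood apart, and HMOX1 was above background on 4 arrays in 16-month RNA and on 3 in 12-month RNA. The ratios were 0.63, 0.070, -1.03 and -0.31, with a mean of -0.16 ± 0.70 and a dye coefficient of 0.51 (adjusted p = 0.969 in limma). The fitted ratio was 0.017 without array 3, -0.022 without array 2, -0.30 without array 1 and -0.34 without array 4.

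NQO1 was above background on 1 array in 16-month RNA and on 1 in 12-month RNA, so its probe was not well above background at either age. Its ratios of -0.088, -0.20, -0.21 and -0.12 are given without a test.

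Metallothioneins bind zinc and copper and also scavenge oxidants. All 3 had a mean ratio below 0 and were higher in 16-month RNA on average. MT1E had levels of 7.96, 8.70, 7.44 and 7.22 in 16-month RNA, against 7.69, 7.71, 6.99 and 7.11 in 12-month RNA. The 16-month level was the higher of the pair on every array, and the ages overlapped because arrays 1 and 2 were high in both.

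The MT1E ratios were -0.27, -0.98, -0.45 and -0.10, with a mean of -0.45 ± 0.38 and a level 1.37-fold higher in 16-month RNA (95% interval -0.78 to -0.12). The unadjusted p was 0.0137 and the adjusted p 0.969 in limma. Array 2 carried much of the mean, and the fitted ratio without array 2 was -0.27 at an unadjusted p of 0.173 in limma. A further MT1E probe had ratios of 0.0097, 0.21, -0.64 and 0.19 and a mean of -0.056 ± 0.40.

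MT1A had ratios of -0.80, -0.998, 0.25 and 0.75 and a mean of -0.20 ± 0.84. MT2A had ratios of -0.44, -0.49, 0.075 and 0.32 and a mean of -0.13 ± 0.39. Both were lower in 12-month RNA on the arrays where it was in Cy5 and higher where it was in Cy3, and their dye coefficients were -0.70 and -0.33, larger than their age ratios. The RefSeq table lists MT1E as a synonym of MT1A and of neighbouring metallothionein genes, so probes of this family may read related copies, which was not tested.

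**Figure D3:**
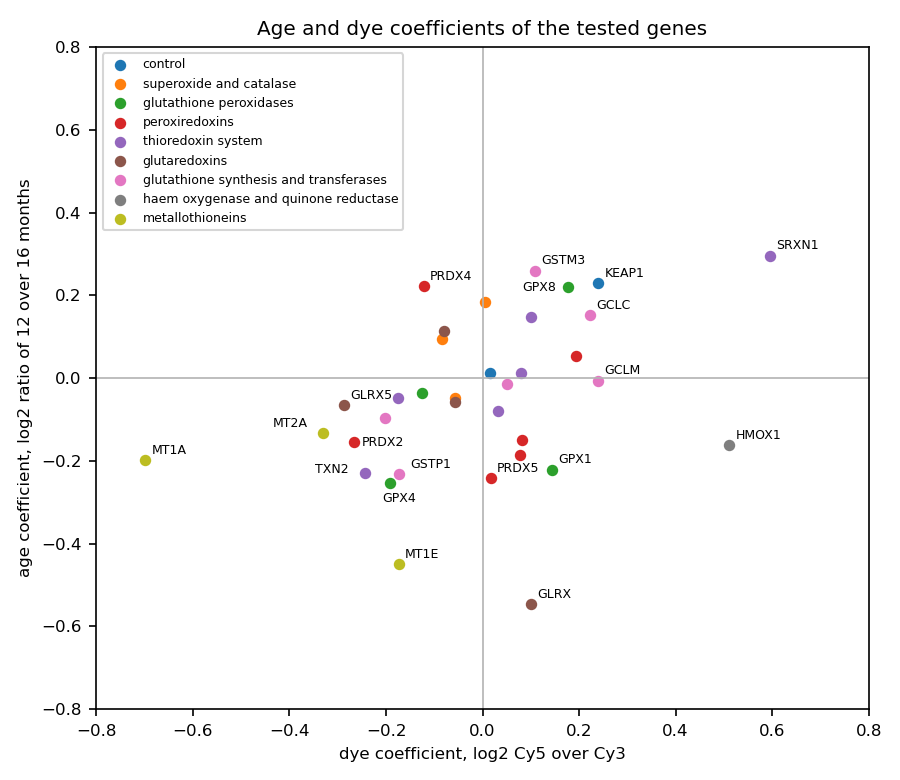
Age coefficient (log2 ratio of 12 over 16 months, vertical axis) against dye coefficient (log2 Cy5 over Cy3, horizontal axis) of the 35 tested genes, 1 point per gene, coloured by role. MT1A, SRXN1 and HMOX1 have the largest dye coefficients, at -0.70, 0.60 and 0.51, and GLRX has the largest age coefficient in size, at -0.55.

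For many of these genes, as for many of all genes tested, the dye coefficient and the spread between arrays were larger than the age ratio. The dye coefficient exceeded the age ratio in size for 18 of the 35 genes, as it did for 6755 of the 11973 genes tested. The median size of the age ratio was 0.15 for the 35 genes and 0.098 for all genes, and the median SD over arrays was 0.31 and 0.27. The genes were not alike on the 4 arrays, with 12, 18, 13 and 24 of 35 above 0 on arrays 1 to 4 and medians of -0.14, 0.0083, -0.19 and 0.15. For all genes these medians lay between -0.022 and 0.024.

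Across the 35 genes, the ratios of arrays 1 and 2 correlated at r = 0.47 and those of arrays 1 and 4 at r = -0.54, while the other pairs lay between -0.045 and 0.025. Over all 11973 genes the same pairs gave 0.35 and -0.22. Arrays 1 and 2 share a dye orientation and arrays 3 and 4 the opposite one. Across the 35 genes the other pairs did not follow the orientation. Over all genes each pair of opposite orientation lay below 0, from -0.22 to -0.079, but so did arrays 3 and 4, at -0.083. The part of the dye in these values was not tested. Genes on an array share its RNA and hybridisation and are not replicates. Without array 3 the median of the fitted ratios over the 35 genes was 0.017, on the other side of 0.

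**Figure D4:**
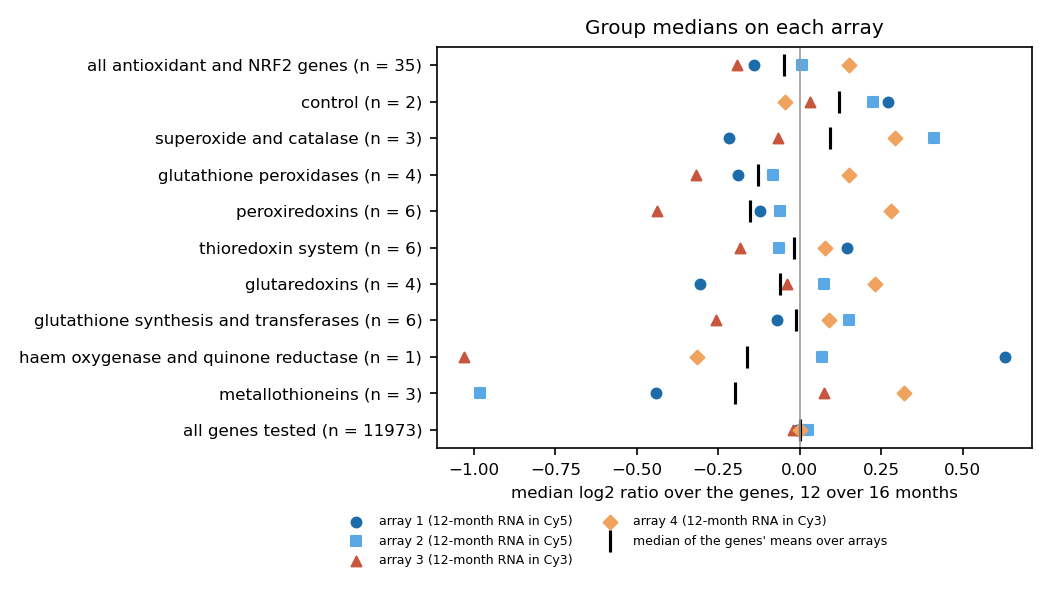
Median log2 ratio of 12 over 16 months (horizontal axis) over the genes of each role, with all 35 genes at the top and all 11973 tested genes at the bottom. Symbols are the 4 arrays and the black mark is the median of the genes' means over arrays. Each role with at least 3 genes has array medians on both sides of 0, whereas the medians of all genes stay within 0.024 of 0.

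By role, the median ratio was -0.20 for the 3 metallothioneins, -0.15 for the 6 peroxiredoxins and -0.13 for the 4 glutathione peroxidases. It was -0.062 for the 4 glutaredoxins, -0.017 for the 6 genes of the thioredoxin system and -0.011 for the 6 tested genes of glutathione synthesis and transfer. It was 0.094 for SOD1, SOD2 and CAT. The peroxiredoxin median stood at -0.12, -0.062, -0.44 and 0.28 on arrays 1 to 4, and the metallothionein median at -0.44, -0.98, 0.075 and 0.32. The spread between arrays was therefore wider than the distance of each of these medians from 0.

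**Figure D5:**
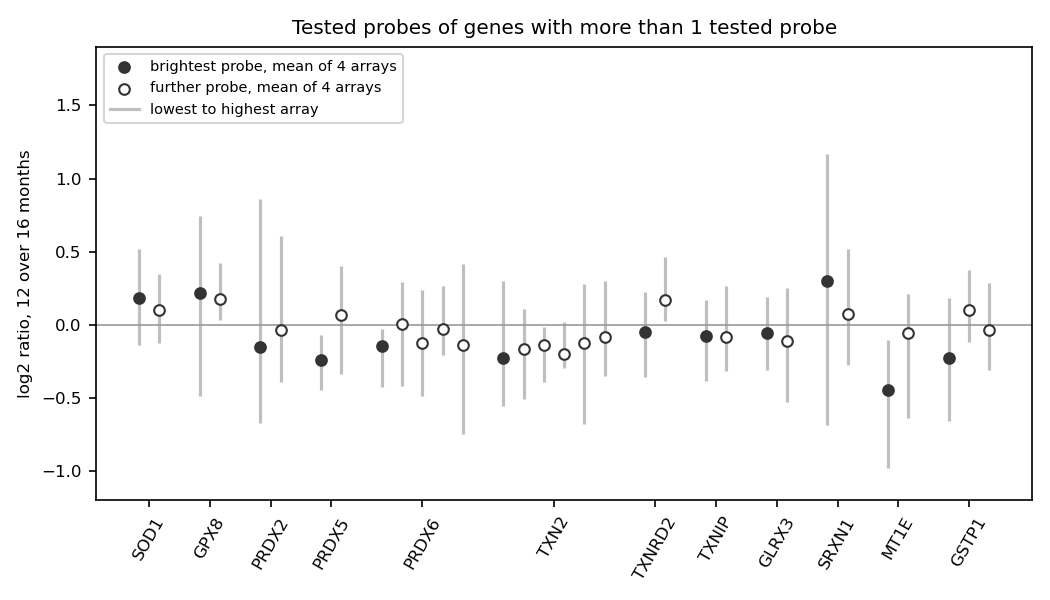
Mean log2 ratio of 12 over 16 months (vertical axis) of every tested probe of the 12 genes with more than 1 tested probe. Filled points are the brightest probe and open points the further probes, and grey lines run from the lowest to the highest of the 4 arrays. The 6 TXN2 probes all have means below 0, while the PRDX5 and TXNRD2 probes lie on both sides.

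Among the 12 genes with more than 1 tested probe, the means of all probes had 1 direction in 8 genes, SOD1, GPX8, PRDX2, TXN2, TXNIP, GLRX3, SRXN1 and MT1E. They pointed both ways in PRDX5, PRDX6, TXNRD2 and GSTP1. Probes of a gene share its RNA, so this is a check of the measurement and not of the embryos. Further probes that were too dim to be tested belonged to GPX3, PRDX3, TXNRD1, TXNIP, GLRX3 and GSS.

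A list of 44 further genes of NRF2 control, NADPH supply, iron storage and redox repair gave 42 with a probe and 37 tested. Of these, 25 had a ratio below 0 and 12 above 0, with a median of -0.049, and 0 passed an adjusted p under 0.05 in limma. CCS and TKT, a transketolase of the NADPH-yielding pentose phosphate pathway, were below 0 on every array, which is 5.41% of 37 against 5.54% of all genes. At an unadjusted p under 0.05 stood CCS, or 2.70% of 37 against 2.04% of all genes. It is the copper chaperone of SOD1 and was higher in 16-month RNA on every array, at -0.42, -0.25, -0.34 and -0.25. Its mean was -0.31 ± 0.081 (unadjusted p = 0.0249, adjusted p = 0.969 in limma). CCS delivers copper to SOD1, whose own mean ratio had the other sign, at 0.18 ± 0.33.

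The companions with the next smallest p were MAFF, MSRB1 and SQSTM1. MAFF, a small MAF protein that pairs with NRF2 on DNA, stood at 0.28 ± 0.35. MSRB1, a methionine sulfoxide reductase, stood at -0.28 ± 0.44. SQSTM1, which binds KEAP1 and is itself an NRF2 target, stood at -0.23 ± 0.31. Each had arrays on both sides of 0.

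The labelled tissue was checked against marker genes. All 10 trophectoderm markers, all 6 inner cell mass markers and the 4 primitive endoderm markers with a probe were above background in all 8 channel signals. Markers of cumulus and granulosa cells were so in 2 of 9 with a probe, of oocytes in 1 of 7, of sperm in 2 of 7 and of blood in 4 of 5, while HAS2, AMH, GDF9, ZAR1 and TYROBP were above background in 0. More of them were bright enough to be tested, at 3 of 9 for cumulus and granulosa cells, 5 of 7 for oocytes and 4 of 7 for sperm, with 4 of 5 for blood. For each list the unlogged intensities were summed and the log2 of the sum taken, so the brightest markers weigh most. This summed level of the trophectoderm list ran from 16.67 to 17.13 in 16-month RNA and from 16.38 to 17.10 in 12-month RNA, and that of the inner cell mass list from 13.69 to 14.02 and from 13.48 to 14.05. The summed cumulus level ran from 10.13 to 10.28 in 16-month RNA and from 10.20 to 10.29 in 12-month RNA, and the blood level from 12.62 to 13.28 and from 12.83 to 13.34. For primitive endoderm the ranges were 12.06 to 13.10 in 16-month RNA and 12.29 to 13.03 in 12-month RNA, for oocytes 9.69 to 9.95 and 9.75 to 9.87, and for sperm 9.81 to 9.92 and 9.73 to 10.18. The ranges of the ages overlapped for every list. Paired within arrays, the median ratio was 0.17 for primitive endoderm, with 3 of 4 markers higher in 12-month RNA. It was 0.13 for inner cell mass, with 4 of 6 higher, and -0.0069 for trophectoderm, with 5 of 10 higher. The other lists had medians from 0.027 for oocytes to 0.10 for cumulus and granulosa cells. An unadjusted p under 0.05 in limma was found for 1 oocyte and 1 blood marker. The part of these cell types in the ratios above was not tested.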

How the data were processed

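Per the file headers, the deposited scanner files hold the intensity of each spot and its surroundings at 532 nm (Cy3) and 635 nm (Cy5), as median and mean over pixels with no background subtracted. The authors' deposited value table holds log2 ratios. Set against the scanner files its columns followed Cy5 over Cy3 of their own array (r from 0.986 to 0.994 across tested probes, column medians -0.017, 0.0027, -0.0066 and -0.0011), and its background step is unknown. The submitters' processing notes name limma.

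Spots marked as ignored by the scanner software (13, 10, 64 and 818 on arrays 1 to 4) were left out before background correction, because a few of them on arrays 3 and 4 have surroundings far brighter than the spot and distort the fit. This choice was made after seeing the data. Median intensities were corrected with normexp (offset 50) and normalised by loess within arrays, with control spots at weight 0. Testing required a background-subtracted signal over the 95th percentile of the 153 negative controls in at least 4 of 8 channel signals. In Cy5, 69.5% to 72.3% of probes cleared it, and in Cy3, 62.7% to 66.6%. Channel levels were made comparable with Aquantile.

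Age and dye were fitted with limma 3.58.1 in R 4.3.3, two-sided, with Benjamini-Hochberg adjustment over 30986 probes. With 4 arrays, the 95% interval reached a median of 0.29 log2 units to each side of the ratio. The procedure was tested on simulated data. Symbols came from the platform annotation (1 symbol for 21790 probes, none for 22004). The brightest tested probe under its platform symbol represents each of the 37 genes and each of all genes tested. For companions and markers, older platform symbols were first replaced by current RefSeq symbols where the synonym was unique. Full levels are given for NFE2L2, KEAP1 and genes with 1 sign on all arrays, an unadjusted p under 0.05 or a mean ratio of at least 0.25 in size, and for HMOX1, which was added after its values were seen. The 4 companions with the smallest p are named. The members and lists were chosen with earlier results of these data known.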

Additional observations from a re-analysis of the deposited data

Results flagged for a closer look

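The log2 ratio of PRDX6 on array 3 was -0.43, while the other arrays lay between -0.081 and -0.031, so array 3 stood far from the others. Of the 37 genes examined for such a sample 1 was found, and chance gives about 1 in 20.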

How the results depend on the processing

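Every ratio is paired, since each array holds RNA of both ages, and an unpaired fit was not run. Across the alternatives with all 4 arrays, 0 probes and 0 of the 35 genes passed the adjusted threshold in limma (as reported, with 1277 probes at an unadjusted p under 0.05). Leaving out 1 array each gave between 0 and 383 probes and between 0 and 1 genes, with 43 probes without array 3 and 383 without array 4, where GLRX passed. The median over the 35 genes ranged from -0.10 without array 2 to 0.017 without array 3, and that of the companions from -0.078 after median centring to -0.00056 without array 3. Of 438 single gene values under alternatives 435 moved by less than 1 SD over arrays. The others were GLRX with mean pixel brightness (-0.28) and the further probes of PRDX5 (0.064) and MT1E (-0.056). Dropping the dye coefficient or changing the brightness filter leaves a ratio as it is. Leaving out 1 array cannot move it by 1 SD. For these settings the count is therefore no measure of stability. Keeping ignored spots in the background fit, an alternative chosen after seeing the data, turned the sign of GCLM, HMOX1 (0.059) and NFE2L2 (-0.0059). It put 6 of the 35 genes at an unadjusted p under 0.05 in limma, against 2. The share of all genes under that setting is not given here, so the rise is no result about these genes. Median centring turned the sign of 4 genes and mean pixel brightness of 2, all with ratios near 0. Leaving out array 1, 2, 3 or 4 turned the sign of the fitted ratio of 8, 3, 9 and 5 genes. PRDX1, PRDX2 and GPX8 were among those without array 3, where 17 genes were below 0 and 18 above. The array left alone in its dye orientation weighs most in these fits, so a sign can differ from that of the plain mean. The number of genes at an unadjusted p under 0.05 in limma also changed with the array left out. GPX3, GSTM3, GCLC and HMOX1 were not above background in all 8 channel signals.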
